A study of Mus musculus with 16 samples.

Results

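The growth hormone, STAT5 and IGF1 axis was followed in mouse liver as 10 genes named by symbol (Ghr, Stat5a, Stat5b, Socs2, Cish, Igf1, Igfals, Bcl6, Cux2 and Hsd3b5) among the 50559 gene symbols of the deposited RNA-Seq table. All 10 were among the 18335 genes with enough counts to be tested. The study fed male C57BL/6J mice, 6 weeks of age at the start, either a low-fat diet (LFD; called chow in the sample labels) or a 60% high-fat diet (HFD) for 10 weeks, and asked how knockdown of KHK, the kinase that phosphorylates fructose, compares with inhibition of its kinase activity. There were 4 groups of 4 liver libraries. The LFD and HFD groups were injected every 2 weeks with a control siRNA against luciferase (10 mg/kg) and gavaged with methylcellulose during the last 4 weeks. The HFD + siRNA group received an siRNA against KHK, directed to hepatocytes, at 20 mg/kg together with methylcellulose. In the HFD + Inhib group the control siRNA was combined with the systemic KHK inhibitor PF-06835919 at 15 mg/kg, given repeatedly each day. The labels do not say which mice were given saline and which insulin shortly before the tissue was taken. Library totals ran from 24317111 to 35820234 counts, with a median of 29570114.

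Growth hormone, secreted by the pituitary, binds its receptor GHR on hepatocytes, and the kinase JAK2 then phosphorylates the transcription factor STAT5, of which STAT5B is the main form in liver. STAT5 induces Igf1, Igfals and the feedback inhibitors Socs2 and Cish, and in male rodents its intermittent activation by pulses of growth hormone maintains the male pattern of liver genes, to which the steroid dehydrogenase Hsd3b5 belongs. BCL6 is a repressor that binds many STAT5 sites in male liver, and CUX2 is a regulator that is normally high in female liver. No source of growth hormone was seen in the tissue: Gh had at most 1 count in any library, and Prl had 0 counts in all 16.

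The short DNA word bound by STAT factors is shown where it occurs near the start sites of the axis genes, because Cish, Bcl6 and Igfals, which hold it, are described below. The word TTCNNNGAA, which reads the same on both strands and also fits the preferred site of BCL6, was searched from 250 bases before to 50 bases after each start site of RefSeq (build GRCm38.p6). It occurred in 8.30% of all 32851 windows and in the windows of 9.55% of 27025 genes. Of the 9 axis genes with a window in the table, 3 held at least 1 match. Socs2 was not in the table. Capitals mark the matches below. Those of Cish lie 0 and 11 bases after the start site, those of Bcl6 lie 118 bases before its first start site and 168, 122 and 88 bases before another, and those of Igfals lie 236 and 58 bases before separate start sites.
Cish, chr9:107296639-107296678, plus strand: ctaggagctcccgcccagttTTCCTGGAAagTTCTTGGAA
Bcl6, chr16:23988942-23988990, minus strand: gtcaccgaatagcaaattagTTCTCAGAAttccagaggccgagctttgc
Bcl6, chr16:23981343-23981471, minus strand: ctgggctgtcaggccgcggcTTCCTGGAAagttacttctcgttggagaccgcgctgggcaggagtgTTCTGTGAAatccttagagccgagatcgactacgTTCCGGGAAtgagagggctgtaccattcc
Igfals, chr17:24877594-24877636, plus strand: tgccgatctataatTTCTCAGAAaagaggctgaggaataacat
Igfals, chr17:24878153-24878201, plus strand: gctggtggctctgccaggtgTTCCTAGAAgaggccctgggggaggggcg
These matches are descriptions of the windows, and binding was not measured.

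The target of the siRNA was examined first. Khk stood at 266 ± 59.9 CPM (counts scaled to an equal library size; mean ± SD, n = 4) in LFD, 264 ± 39.8 in HFD, 12.7 ± 3.85 in the siRNA group and 120 ± 24.1 in the inhibitor group. The siRNA libraries held 9.14 to 18.1 CPM, below all others, and the fold change against HFD was -4.38 ± 0.23 (SE) on the log2 scale (adjusted p = 1.9e-08, edgeR's quasi-likelihood test, adjusted by the Benjamini-Hochberg method over all genes tested, as for every adjusted p here unless stated). Khk mRNA was also lower in HFD + Inhib than in HFD, by -1.14 ± 0.20 (adjusted p = 7.5e-04).

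In the liver of HFD-fed mice, 1 of the 10 axis genes rose and 2 fell relative to LFD: Igf1 rose 1.49-fold, while Stat5b fell to 0.692-fold and Hsd3b5 to 0.175-fold of the LFD level. Knockdown of KHK on HFD moved none of the 10 past the test. Inhibition of KHK on HFD lowered 3, Stat5b, Igfals and Hsd3b5, and the same 3 genes were lower in HFD + Inhib than in HFD + siRNA. Among all genes tested, 9.58% were called higher and 8.8% lower in HFD against LFD, 5.2% higher and 6.55% lower in HFD + siRNA against HFD, 9.8% higher and 8.42% lower in HFD + Inhib against HFD, and 17.3% higher and 16.6% lower in HFD + Inhib against HFD + siRNA. Against LFD, none of the 10 was called in HFD + siRNA, where 4.75% of all genes were higher and 3.88% lower, while 3 (Ghr, Stat5b and Hsd3b5) had an unadjusted p under 0.05 with edgeR and DESeq2 called 0. In that comparison Ghr was called with GC content and transcript length corrected for (0.28, adjusted p = 0.0246) and Hsd3b5 without HFD + siRNA replicate 2 (-2.72, adjusted p = 0.0192). Against LFD, 1 axis gene was higher and 3 were lower in HFD + Inhib, where 18.8% of all genes were higher and 18.2% lower. The comparisons share groups: HFD enters 3 of the 4 main comparisons. With DESeq2, 1 axis gene, Igf1, was called in HFD + siRNA against HFD, and at an unadjusted p under 0.05 edgeR gave 2, Igf1 and Stat5a.

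**Figure D1:**
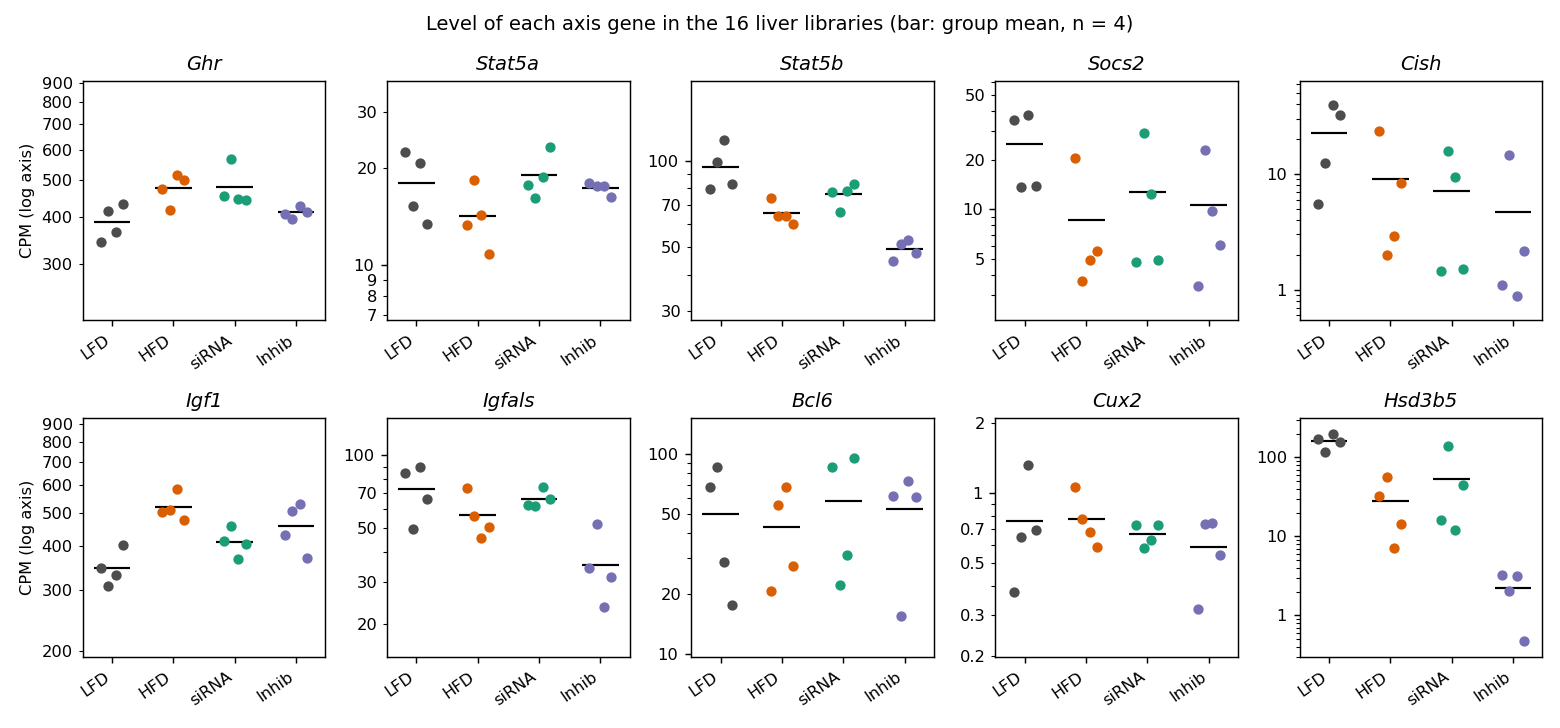
Level of each axis gene in CPM (log axis, range set per gene) in the 16 liver libraries, 4 per group; each point is a library and each bar the mean of its group. Hsd3b5 in HFD + Inhib lies at 0.480 to 3.25 CPM, below all other libraries, and Stat5b in HFD + Inhib lies at 44.6 to 52.9 CPM, also below all others.

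The receptor and the transcription factors come first in the pathway. Per kilobase of transcript, Ghr was the most abundant axis gene in LFD, at 325 ± 34.7 CPM per kb, followed by Igf1 at 254 ± 29.3, Hsd3b5 at 103 ± 22.3 and Igfals at 57.8 ± 14.6. Socs2 (28.4 ± 14.9), Stat5b (18.7 ± 3.52), Bcl6 (13.4 ± 8.69) and Cish (8.26 ± 5.94) formed a middle range in which neighbours in the order did not differ beyond their spread. Stat5a stood at 4.99 ± 1.21 and Cux2 at 1.02 ± 0.54 CPM per kb. Lengths were medians over annotated transcripts, so these values are approximate, and they assume that reads came from along the whole transcript.

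Ghr, the growth hormone receptor, was measured at 343, 413, 364 and 431 CPM in LFD, 473, 416, 516 and 501 in HFD, 453, 568, 446 and 442 in HFD + siRNA, and 406, 396, 428 and 412 in HFD + Inhib. The HFD and HFD + siRNA libraries were mostly above those of LFD, with overlap between LFD and HFD. The difference of HFD from LFD was 0.30 ± 0.10 on the log2 scale and did not pass the test (adjusted p = 0.0577), and passed it with DESeq2 (adjusted p = 0.0326) and once GC content and transcript length were corrected for (adjusted p = 0.0419). HFD + Inhib differed from HFD by -0.22 ± 0.10 (adjusted p = 0.170). After the same correction this difference was -0.33 (adjusted p = 0.00589). HFD + Inhib lay below HFD + siRNA without overlap, a difference of -0.22 ± 0.10 (adjusted p = 0.117) and, with the correction, of -0.37 (adjusted p = 0.00197).

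Stat5b encodes the main growth hormone-responsive STAT protein of liver. It was measured at 79.5, 99.0, 118 and 82.7 CPM in LFD, 74.2, 64.0, 64.3 and 60.1 in HFD, 77.9, 66.4, 78.1 and 83.0 in HFD + siRNA, and 44.6, 51.1, 52.9 and 47.5 in HFD + Inhib. All HFD libraries were below all LFD libraries, all HFD + Inhib libraries were below those of every other group, and HFD + siRNA overlapped with both LFD and HFD. Stat5b fell in HFD against LFD by 0.53 on the log2 scale (SE 0.12, adjusted p = 0.00641), and was lower in HFD + Inhib than in HFD by -0.42 ± 0.12 (adjusted p = 0.0192), than in HFD + siRNA by -0.64 ± 0.12 (adjusted p = 6.5e-04) and than in LFD by -0.95 ± 0.12 (adjusted p = 1.8e-05). The call of HFD + Inhib against HFD was lost with that correction (-0.25, adjusted p = 0.102) and without HFD + Inhib replicate 1 (-0.38, adjusted p = 0.0556), HFD + Inhib replicate 4 (-0.41, adjusted p = 0.0515) or HFD replicate 1 (-0.36, adjusted p = 0.0709). The other 3 were called under each of 16 alternatives, with an adjusted p of at most 0.0381 for HFD against LFD and 0.0142 for HFD + Inhib against HFD + siRNA.

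Stat5a, the close relative of Stat5b, did not pass the test in any comparison, although HFD + Inhib exceeded HFD by 0.44 after the GC and length correction (adjusted p = 0.0312) and HFD + siRNA exceeded HFD by 0.57 without HFD replicate 2 (adjusted p = 0.0468). It was measured at 22.5, 15.2, 20.8 and 13.4 CPM in LFD, 13.4, 18.4, 14.3 and 10.8 in HFD, 17.8, 16.1, 18.7 and 23.4 in HFD + siRNA, and 18.1, 17.7, 17.7 and 16.3 in HFD + Inhib. The 4 groups overlapped. The ratio of Stat5b to Stat5a, both per kb, was 3.90 ± 0.95 in LFD, 3.40 ± 0.71 in HFD, 2.89 ± 0.25 in the siRNA group and 2.01 ± 0.17 in the inhibitor group. The HFD + Inhib ratios, from 1.76 to 2.13, were below those of HFD (2.48 to 3.96) and HFD + siRNA (2.53 to 3.12) without overlap, with an exact two-sided permutation p of 0.0286 in each case, the smallest that 4 against 4 allows, and 0.0572 after adjustment over the 4 comparisons made. The transcripts share sequence (8.21% of the 50-base words of Stat5a occur in Stat5b and 10.98% of those of Stat5b in Stat5a), so some reads could be divided between them.

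Igf1, the circulating growth factor made by hepatocytes in response to growth hormone, rose in HFD. It was measured at 347, 309, 332 and 403 CPM in LFD, 502, 510, 585 and 476 in HFD, 415, 458, 367 and 406 in HFD + siRNA, and 432, 504, 531 and 370 in HFD + Inhib. Every HFD library was above every LFD library, and HFD + siRNA lay below HFD without overlap. HFD exceeded LFD by 0.58 ± 0.12 on the log2 scale (adjusted p = 0.00448), and this call held under each of 16 alternatives. HFD + siRNA differed from HFD by -0.33 ± 0.12 and did not pass the test (adjusted p = 0.0822), but passed with DESeq2 (adjusted p = 0.0404), in a fit of those 2 groups alone (adjusted p = 0.0448) and after the GC and length correction (adjusted p = 0.0451). HFD + Inhib overlapped with HFD (-0.17 ± 0.12, adjusted p = 0.350) and exceeded LFD by 0.40 ± 0.12 (adjusted p = 0.0152). Without HFD + Inhib replicate 3 that last difference was 0.32 and was no longer called (adjusted p = 0.0546).

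Igfals encodes the acid-labile subunit, which holds IGF1 and its binding protein in a long-lived complex in blood. It was measured at 84.9, 49.6, 89.5 and 66.3 CPM in LFD, 73.2, 56.4, 45.7 and 50.6 in HFD, 62.4, 61.8, 73.8 and 65.8 in HFD + siRNA, and 34.2, 52.1, 23.5 and 31.5 in HFD + Inhib. HFD + Inhib lay below HFD + siRNA without overlap, while its replicate 2 reached into the ranges of LFD and HFD. Igfals was lower in HFD + Inhib than in HFD + siRNA by -0.90 ± 0.22 (adjusted p = 0.00451) and than in LFD by -1.04 ± 0.22 (adjusted p = 0.00153), both of which were called under each of 16 alternatives. The difference from HFD was -0.68 ± 0.22 (adjusted p = 0.0385). That call was lost in a fit of the 2 groups alone (adjusted p = 0.0538), in a fit with the replicate block (adjusted p = 0.0567), and without any of 6 of the 8 libraries: HFD replicates 1, 2 and 4 and HFD + Inhib replicates 1, 3 and 4. By group mean, Igf1 was lowest in LFD and Igfals was highest there.

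**Figure D2:**
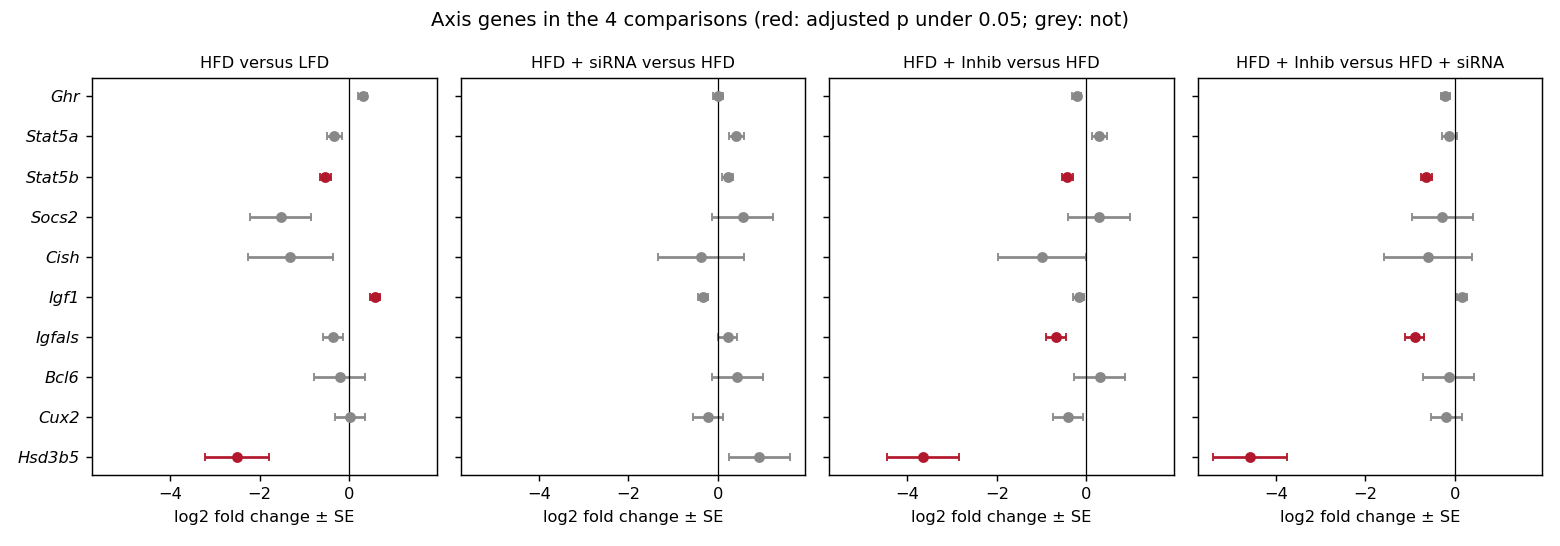
Log2 fold change (± SE, edgeR's quasi-likelihood fit over all 16 libraries) of the 10 axis genes in 4 comparisons, with red points for an adjusted p under 0.05. Hsd3b5 has the farthest points, at -2.51, -3.65 and -4.58, while the bars of Socs2, Cish and Bcl6 are wide.

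Hsd3b5, a 3-beta-hydroxysteroid dehydrogenase of male liver, showed the widest range between groups. It was measured at 169, 115, 199 and 155 CPM in LFD, 32.6, 57.2, 7.06 and 14.3 in HFD, 16.1, 139, 11.96 and 45.1 in HFD + siRNA, and 3.25, 2.06, 3.17 and 0.480 in HFD + Inhib. Every HFD library was below every LFD library, every HFD + Inhib library was below every other library, and HFD + siRNA ranged from the level of HFD to that of LFD. Hsd3b5 fell in HFD against LFD by 2.51 on the log2 scale (SE 0.71, adjusted p = 0.0224). That call was lost without HFD replicate 3 (-2.19, adjusted p = 0.0636), HFD replicate 4 (-2.29, adjusted p = 0.0698) or LFD replicate 3 (-2.38, adjusted p = 0.0543). HFD + Inhib was lower than HFD by -3.65 ± 0.80 (adjusted p = 0.00439), than HFD + siRNA by -4.58 ± 0.82 (adjusted p = 5.4e-04) and than LFD by -6.16 ± 0.87 (adjusted p = 6.1e-05), each called under all 16 alternatives. HFD + siRNA differed from HFD by 0.93 ± 0.68 (adjusted p = 0.414), and the difference was -0.21 without HFD + siRNA replicate 2, the library at 139 CPM. Of the 50-base words of Hsd3b5, 21.2% occur in other genes, mostly Gm10681, so its counts may include reads of near-identical relatives.

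Some hepatocyte markers were also lower in HFD + Inhib. Their summed level over 8 genes, led by albumin (Alb), was 77937 ± 7521 CPM in LFD, 69699 ± 7422 in HFD, 72413 ± 5265 in the siRNA group and 45889 ± 1419 in the inhibitor group, and none was at 0 in any library. In HFD + Inhib against HFD, 3 of the 8 were lower, namely Alb (-0.77), Ttr (-0.93) and Cps1 (-0.53 on the log2 scale), and 0 were higher, where 8.42% of all genes were lower and 9.8% higher. The other 5 were not called, and 2 of them had a higher mean in HFD + Inhib than in HFD. Cyp2e1 stood at 6323 against 5284 CPM and Tat at 735 against 623 CPM. Against HFD + siRNA, 5 of the 8 were lower in HFD + Inhib and 1 was higher. The lower ones were Alb (-0.84), Ttr (-1.18), Cps1 (-0.81), Asgr1 (-0.51) and Hnf4a (-0.40), and the higher one was Cyp2e1 (0.91). In that comparison 16.6% of all genes were lower and 17.3% higher. In bulk tissue, fewer cells of a type and less RNA per cell cannot be told apart. Of the other lists, the summed lymphocyte markers were 5.78 ± 2.36 CPM in HFD and 2.09 ± 0.57 in HFD + Inhib, the macrophage markers 254 ± 22.9 and 196 ± 37.7, the stellate cell markers 405 ± 38.7 and 307 ± 14.6, the endothelial markers 381 ± 21.8 and 361 ± 13.1, and the cholangiocyte markers 39.0 ± 8.92 and 38.2 ± 10.8. The sum over the 6 adipocyte markers was at 1463 ± 234 CPM in HFD, 2900 ± 469 in the siRNA group and 1261 ± 199 in the inhibitor group, but nearly all of it was Car3, which hepatocytes also express (1451, 2890 and 1200 CPM). Cidec, a lipid droplet protein that fatty liver can also express, went another way, at 7.70 ± 5.12 CPM in HFD, 3.58 ± 0.50 in the siRNA group and 45.6 ± 13.8 in the inhibitor group (2.55 ± 0.34 in HFD + Inhib against HFD, adjusted p = 7.9e-05), as did Adrb3, a beta-adrenergic receptor, at 3.65 ± 0.56, 6.19 ± 2.70 and 15.2 ± 4.71 CPM (2.05 ± 0.28, adjusted p = 1.0e-04). The defining adipocyte markers Adipoq, Plin1 and Lep had at most 16, 15 and 21 counts in any library and were not tested. The pancreas list, led by Cela1, was at 15.6 ± 2.65, 24.6 ± 5.03 and 5.69 ± 1.38 CPM. Between 4 and 7 of its 8 genes had 0 counts in each of these libraries, so the sum rests on few genes. Across 8232 genes, the log2 fold change also ran with GC content, with a Spearman correlation of -0.50 in HFD against LFD, 0.47 in HFD + siRNA against HFD, -0.27 in HFD + Inhib against HFD and -0.51 in HFD + Inhib against HFD + siRNA (a description across genes, which are not independent). Stat5b (55.3% GC) and Igfals (59.0%) lay above the median of 50.3%, and Hsd3b5 (48.5%) and Igf1 (49.5%) below it. The part of cell makeup in the results was not tested.

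The feedback inhibitors and BCL6 varied widely between mice of the same group. Within groups, the SD of log2 CPM was 1.63 for Cish, 1.09 for Socs2, 1.002 for Bcl6 and 1.22 for Hsd3b5, larger than that of 99.9%, 99.4%, 99.7% and 99.6% of genes of like level. For Ghr (0.14), Igf1 (0.17) and Stat5b (0.17) it was larger than that of 33.5%, 51.1% and 62.9% of such genes. Cish, an early target of STAT5 that binds the activated receptor, was measured at 5.53, 12.5, 39.9 and 32.7 CPM in LFD, 23.4, 2.004, 2.92 and 8.33 in HFD, 1.46, 15.8, 9.52 and 1.49 in HFD + siRNA, and 1.10, 14.7, 0.874 and 2.16 in HFD + Inhib. Each group spanned a wide range and all groups overlapped. The difference of HFD from LFD was -1.31 ± 0.94 (adjusted p = 0.357) and that of HFD + Inhib from LFD was -2.30 ± 0.99 (adjusted p = 0.0800), called only without HFD + Inhib replicate 2 among the 16 alternatives (-4.03, adjusted p = 0.00936).

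Socs2, which marks the receptor for degradation, was measured at 35.2, 13.6, 37.8 and 13.8 CPM in LFD, 20.6, 3.67, 4.89 and 5.55 in HFD, 4.78, 29.4, 12.3 and 4.89 in HFD + siRNA, and 3.39, 23.2, 9.75 and 6.09 in HFD + Inhib. On each HFD group at least 1 library reached the LFD range. HFD differed from LFD by -1.53 ± 0.69 and did not pass the test (adjusted p = 0.132), and without HFD replicate 1 the difference was -2.42 (adjusted p = 0.0322). No other comparison of Socs2 passed, except HFD + Inhib against LFD without HFD + Inhib replicate 2 (-1.97, adjusted p = 0.0448).

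Bcl6 was measured at 68.0, 86.3, 28.8 and 17.5 CPM in LFD, 20.5, 55.8, 68.7 and 27.4 in HFD, 85.6, 22.2, 31.1 and 94.99 in HFD + siRNA, and 61.8, 15.5, 73.7 and 61.1 in HFD + Inhib. It was called in no comparison, and the adjusted p was at least 0.492 under every alternative. Bcl6 ran opposite to Cish within every group. In LFD the libraries with the lowest Bcl6, replicates 3 and 4, had the highest Cish, as had replicates 1 and 4 in HFD, replicates 2 and 3 in HFD + siRNA and replicate 2 in HFD + Inhib. Within groups (log2 CPM after subtraction of the group mean, 16 libraries), Pearson's r of the 2 genes was -0.93 (exact permutation p within groups = 3.6e-04, adjusted over the 45 pairs of axis genes 0.00821) and Spearman's rho -0.80 (exact permutation p = 0.00328, adjusted 0.0737), with the same sign in all 4 groups and r of -0.90 without the 2 libraries farthest from the median. The Bcl6 values left a gap between 31.1 and 55.8 CPM, with 7 libraries below and 9 above, so the 16 points are not evenly spread.

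**Figure D3:**
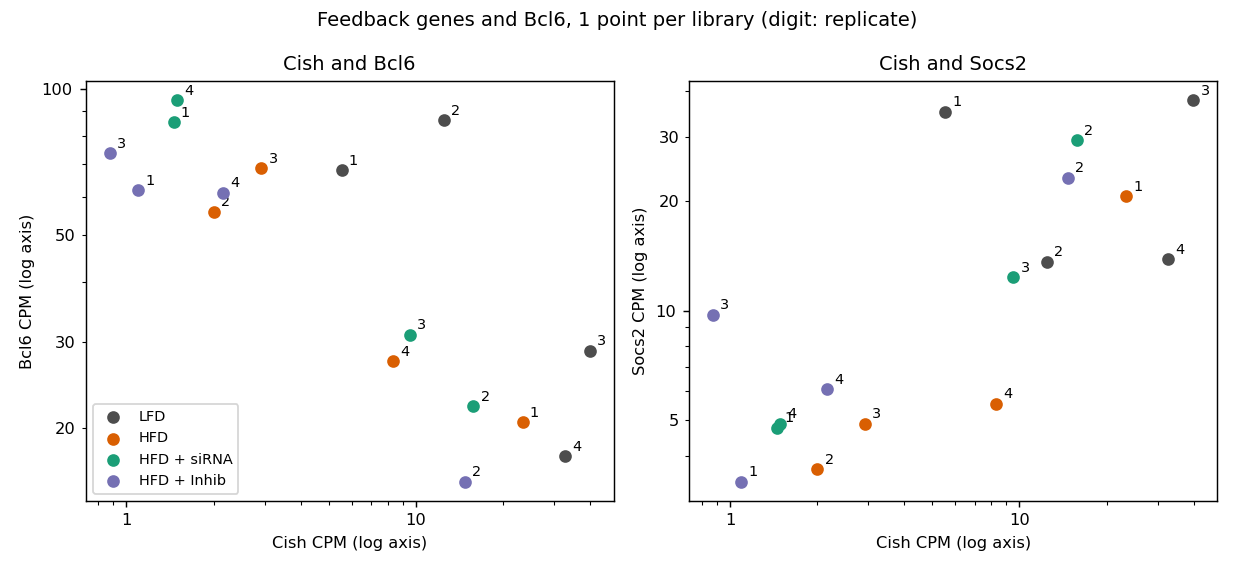
Bcl6 against Cish (left) and Socs2 against Cish (right), in CPM on log axes, 1 point per library, coloured by group and numbered by replicate. At left, the 7 libraries with Bcl6 at or below 31.1 CPM all have Cish of at least 8.33 CPM, and at right HFD replicate 1, HFD + siRNA replicate 2 and HFD + Inhib replicate 2 lead their groups in both genes.

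Stat5b and Cux2 ran together within groups by the same measure, with Pearson's r of 0.86 (exact permutation p within groups = 2.0e-04, adjusted over the pairs 0.00821) and Spearman's rho of 0.81 (exact permutation p = 9.3e-04, adjusted 0.0418), the same sign in all 4 groups and r of 0.72 without the 2 libraries farthest from the median of Stat5b. Cux2 itself was scarce, at 9 to 44 counts per library and 0.757 ± 0.396 CPM in LFD, 0.775 ± 0.205 in HFD, 0.668 ± 0.074 in the siRNA group and 0.585 ± 0.202 in the inhibitor group, and was called in no comparison. Socs2 and Cish ran together with r of 0.74 (exact permutation p = 0.00852, adjusted 0.101) and rho of 0.68 (exact permutation p = 0.0171, adjusted 0.154), with the same sign in 3 of 4 groups and r of 0.61 without the 2 farthest libraries, which did not pass the adjustment. Hsd3b5 and Cish gave no detectable relation within groups (r of 0.11, exact permutation p = 0.729, adjusted 0.912; rho of 0.03, exact permutation p = 0.941, adjusted 0.941). In HFD + siRNA replicate 2 was highest for Ghr, Socs2, Cish, Igf1 and Hsd3b5. In HFD + Inhib replicate 2 was highest for Socs2, Cish and Igfals and lowest for Bcl6, while its Hsd3b5 stood at 2.06 CPM.

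Across all 16 libraries and 12408 other genes with a mean log2 CPM of at least 1, the genes whose log2 CPM followed the axis genes most closely by Pearson's r were Rgs3 (0.93), Lurap1l (0.90) and Foxa2 (0.89) for Cish, Zfp609 (0.89), Onecut1 (0.88) and Prdm2 (0.87) for Socs2, and Prox1 (0.82) for Bcl6. Those for Hsd3b5 were Gm3734 (0.95), C8a (0.93) and Ddost (0.92). For Stat5b they were Lrrc45 (0.97) and Acp6 (0.95), for Igfals Ift20 (0.96) and Dgcr2 (0.95), for Igf1 Yipf5 (0.92), for Ghr Adk (0.94), for Stat5a Tbc1d25 (0.88) and for Cux2 Lamc3 (0.78). These values describe 16 points that share group, depth and the GC trend, and rank first among many genes.

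Of 21 other genes of receptor signalling, 1 rose and 2 fell in HFD against LFD (median log2 fold change -0.18, against -0.01 over all genes tested), 0 and 2 in HFD + siRNA against HFD (median 0.11, against 0.02), 1 and 5 in HFD + Inhib against HFD (-0.11, against -0.00), and 2 and 5 in HFD + Inhib against HFD + siRNA (-0.15, against -0.04). Socs1, under the filter's minimum (0.338 CPM) in some library of every group except HFD + siRNA, is kept in these counts and medians and was not called. Read against the shares of all genes called in the same direction (9.58% and 8.8%, 5.2% and 6.55%, 9.8% and 8.42%, and 17.3% and 16.6%, higher and lower in that order of comparisons), most of these counts lie near or below the background, and the count farthest above it was the 5 lower in HFD + Inhib against HFD (23.8%). Of those 5, Irs1, Tyk2 and Lyn were each lost when some single library was left out (by 6, 3 and 2 of 8 such fits), and Prlr and Stat3 were not. Prlr, the prolactin receptor, which also signals through STAT5, stood at 87.9 ± 10.3 CPM in LFD, 165 ± 21.8 in HFD, 212 ± 17.7 in the siRNA group and 66.1 ± 23.8 in the inhibitor group. Its HFD libraries lay above, and its HFD + Inhib libraries below, those of the group compared: it rose by 0.91 ± 0.20 in HFD against LFD (adjusted p = 0.00621), and HFD + Inhib differed from HFD by -1.32 ± 0.20 (adjusted p = 2.4e-04) and from HFD + siRNA by -1.68 ± 0.20 (adjusted p = 1.6e-05). Stat3, the STAT protein of IL-6 signalling, was lower by -0.43, -0.46 and -0.71 in HFD against LFD, HFD + Inhib against HFD and HFD + Inhib against HFD + siRNA. Irs2, an insulin receptor substrate, was lower in HFD than in LFD by -1.07 ± 0.23 (adjusted p = 0.00579). Ptpn11, the phosphatase SHP2, and Socs6, a suppressor of cytokine signalling, fell with KHK siRNA relative to HFD (-0.35 and -0.45) and were higher in HFD + Inhib than in HFD + siRNA (0.29 and 0.58), and Ptpn6, the phosphatase SHP1, was higher in HFD + Inhib than in HFD (0.40).

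Among 12 tested of 15 genes of the IGF system, 0 rose and 2 fell in HFD against LFD (median -0.03), 1 and 0 in HFD + siRNA against HFD (median 0.13), 1 and 1 in HFD + Inhib against HFD (median -0.10), and 2 and 3 in HFD + Inhib against HFD + siRNA (median -0.24). Pappa was under the filter's minimum in some library of every group, and Igfbp6 in LFD and HFD + Inhib. The counts and medians keep both. These counts of 0 to 3 genes lie near the shares of all genes called (9.58% higher and 8.8% lower, 5.2% and 6.55%, 9.8% and 8.42%, and 17.3% and 16.6% in the 4 comparisons). Igfbp2, an IGF-binding protein made by hepatocytes, stood at 338 ± 105 CPM in LFD, 89.8 ± 36.8 in HFD, 112 ± 31.9 in the siRNA group and 317 ± 56.7 in the inhibitor group. Its HFD and HFD + siRNA libraries, from 40.9 to 160 CPM, lay below those of LFD and HFD + Inhib, which began at 256 CPM. It fell in HFD against LFD by 1.91 on the log2 scale (SE 0.29, adjusted p = 6.3e-04) and rose in HFD + Inhib by 1.82 ± 0.29 against HFD (adjusted p = 3.8e-04) and 1.49 ± 0.29 against HFD + siRNA (adjusted p = 9.7e-04). Igfbp1, which insulin represses, stood at 144 ± 136 CPM in LFD, from 47.3 to 345, and at 46.5 in HFD, from 38.9 to 59.2. The groups overlapped, and LFD replicate 3 carried much of the difference, which was -1.64 ± 0.47 (adjusted p = 0.0234) with it and -0.73 (adjusted p = 0.149) without it. The call was also lost without HFD replicate 1, 3 or 4. Igfbp4 was lower in HFD + Inhib by -0.45 against HFD, a call lost in 5 of 8 fits with a library left out, and by -0.51 against HFD + siRNA, where Igfbp7 was lower by -0.50 and Insr, the insulin receptor, higher by 0.25. Igf2r, which clears IGF2, was higher by 0.22 in HFD + siRNA against HFD, and this call was lost whichever of the 8 libraries was left out (adjusted p up to 0.124).

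Hsd3b5 was set beside 20 further genes known to be higher in male than in female mouse liver. Ugt2b38, a glucuronosyltransferase, was under the filter's minimum in some HFD library and was tested through the other groups, so the comparisons with HFD count the other 19. In HFD against LFD, 11 of the 19 fell and 0 rose, with a median log2 fold change of -0.999, where 8.8% of all genes were lower and 9.58% higher. Of these 11, Cyp7b1, Susd4, Selenbp2 and C6 were lost in 7, 6, 5 and 4 of 8 fits with a library left out. In HFD + siRNA against HFD, 3 rose and 0 fell (median 0.80), where 5.2% of all genes were higher and 6.55% lower. Of these 3, Susd4 was called whichever library was left out, while Elovl3 and Gstp1 were lost in 2 and 3 of 8 such fits. HFD + Inhib against HFD gave 3 higher and 3 lower (median -0.01, with 9.8% and 8.42% of all genes), and of these 6 the rise of Elovl3 was lost in 6 of 8 fits with a library left out. HFD + Inhib against HFD + siRNA gave 2 higher and 8 lower of all 20 (median -0.80), so that the share higher lay below the 17.3% of all genes and the share lower above their 16.6%. The count of 8 was 3 without HFD + siRNA replicate 2, 5 without HFD + Inhib replicate 3 and 4 without HFD + Inhib replicate 4. The fall in HFD was largest for Serpina4-ps1 (-4.25 ± 0.99, adjusted p = 0.00842; -5.01 without HFD replicate 1). With KHK siRNA, Susd4, a complement regulator, rose by 1.999 ± 0.26 (adjusted p = 3.8e-04). Ugt2b38 stood at 3.49 to 12.4 CPM in LFD, 0.114 to 0.762 in HFD and 0.663 to 10.5 in HFD + siRNA, where it overlapped with both, and these levels are given with no test. Several of these genes share sequence with relatives, among them the Mup genes and Ugt2b38.

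Beside the fall of Hsd3b5, the male-biased genes of HFD + Inhib were called in both directions. Cyp4a12a, a fatty acid and arachidonic acid hydroxylase, stood at 189 ± 16.9 CPM in LFD, 64.6 ± 45.3 in HFD, 92.6 ± 41.7 in the siRNA group and 632 ± 130 in the inhibitor group, where all libraries were above those of the other groups. It rose by 3.29 ± 0.43 against HFD (adjusted p = 5.4e-05), and Cyp4a12b rose by 4.68 ± 0.54 (adjusted p = 1.7e-05; 5.62 without HFD replicate 2). These 2 share 48.9% of the 50-base words of Cyp4a12a, so their reads cannot be fully told apart. Gstp1, a glutathione transferase, went the other way, at 1509 ± 400 CPM in LFD, 527 ± 166 in HFD, 1088 ± 268 in the siRNA group and 225 ± 72.4 in the inhibitor group, which was lower than HFD by -1.22 ± 0.26 (adjusted p = 0.00333) and than HFD + siRNA by -2.27 ± 0.27 (adjusted p = 1.2e-05). Slco1a1, an organic anion transporter, was lower in HFD + Inhib than in HFD by -1.85 ± 0.31 (adjusted p = 4.9e-04). Serpina4-ps1 stood at 3.04 to 81.1 CPM in HFD + siRNA and 0.420 to 3.79 in HFD + Inhib, which overlap. Its difference of -3.28 ± 0.98 (adjusted p = 0.0168) rested on the library at 81.1 CPM and was -1.17 (adjusted p = 0.229) without that library, HFD + siRNA replicate 2. The call was also lost without HFD + Inhib replicate 4 (-2.90, adjusted p = 0.0503).

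Of 27 genes higher in female liver, 19 could be tested. In LFD 11 of the 19 reached the filter's minimum (0.338 CPM) in every library, as did 15 in HFD, 14 in the siRNA group and 11 in the inhibitor group. The other 8 in LFD, among them Cyp2b9, Cyp2b13 and Cyp2a4, were tested through groups where they were higher, so no count or median over the list is given. Cyp2b9, a cytochrome P450, had 2 to 28 counts per library in LFD (0.574 ± 0.407 CPM) and stood at 115 ± 65.5 CPM in HFD, 83.0 ± 57.8 in the siRNA group and 111 ± 113 in the inhibitor group. Cyp2a4, a steroid hydroxylase, stood at 0.344 ± 0.502 CPM in LFD and 13.3 ± 3.65 in HFD. Cyp2c40 and Cyp2c69 went the other way, at 3.40 ± 2.13 and 1.08 ± 0.83 CPM in LFD and 0.448 ± 0.215 and 0.099 ± 0.096 in HFD. These levels are given with no test. Ntrk2, a neurotrophin receptor, was at 1.29 ± 0.77 CPM in LFD, 20.9 ± 5.67 in HFD, 12.6 ± 14.5 in the siRNA group and 0.765 ± 0.216 in the inhibitor group, lower than HFD by -4.78 ± 0.66 (adjusted p = 9.8e-05). The transporter Slc22a27 was also lower in HFD + Inhib than in HFD (-1.79 ± 0.35, adjusted p = 0.00204), and Trim24, a transcriptional cofactor, was lower in HFD + siRNA than in HFD (-0.54 ± 0.15, adjusted p = 0.0289), a call lost in 6 of 8 fits with a library left out. Ntrk2 (4.05) and Trim24 (1.23) were higher in HFD than in LFD, whichever library was left out. Nipal1 was higher in HFD + Inhib than in HFD + siRNA (1.42 ± 0.50, adjusted p = 0.0369), a call lost in 5 of 8 such fits.

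**Figure D4:**
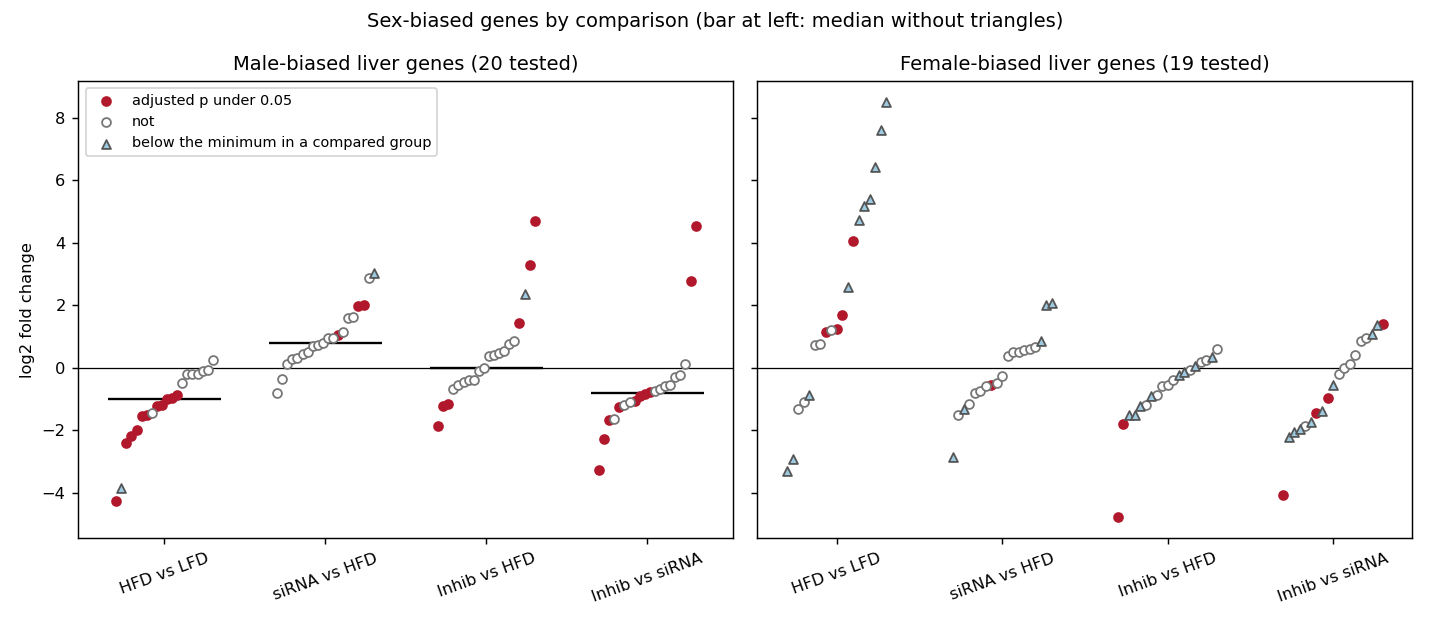
Log2 fold change of each tested gene of the male-biased (left, 20 genes) and female-biased (right, 19 genes) lists in 4 comparisons, ordered by value within each. Red points have an adjusted p under 0.05, white points do not, triangles are genes under the filter's minimum in some library of a compared group and are drawn without a call, and bars at left are medians without the triangles; in HFD versus LFD the male-biased median is -0.999, and the highest points at right are triangles.

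Among 13 liver transcription factors linked to the growth hormone network, 1 rose and 1 fell in HFD against LFD, none was called by edgeR in HFD + siRNA against HFD (5 had an unadjusted p under 0.05), 1 fell in HFD + Inhib against HFD, and 2 rose and 3 fell in HFD + Inhib against HFD + siRNA. Over all genes 9.58% were higher and 8.8% lower in the first of these comparisons, 5.2% and 6.55% in the second, 9.8% and 8.42% in the third and 17.3% and 16.6% in the last, and counts of 0 to 3 of 13 are near those shares. The medians of the 13 were -0.09, 0.03, -0.02 and -0.21. Tox, a nuclear factor, was higher in HFD than in LFD by 1.35 ± 0.24 (adjusted p = 0.00168), and Zhx2, a repressor of fetal liver genes, was lower by -0.40 ± 0.07 (adjusted p = 0.00202). Esr1, the estrogen receptor, was lower in HFD + Inhib than in HFD by -1.20 ± 0.29 (adjusted p = 0.00803). Against HFD + siRNA, HFD + Inhib had lower Hnf4a, the hepatocyte nuclear factor that maintains liver gene expression (-0.40 ± 0.09, adjusted p = 0.00267), and lower Rxra, the retinoid X receptor (-0.54 ± 0.12, adjusted p = 0.00206).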

How the data were processed

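RNA was isolated from liver of 16 mice, 4 per group. The study's methods name HTG EdgeSeq mRNA sequencing, a probe-based assay, whereas the deposited table has counts in 33142 of its symbols and values that are not whole. Which assay gave these libraries was not settled, and levels per kb, the GC and length correction and shared 50-base words assume reads from along the transcript. The authors deposited RSEM expected counts per gene symbol, and 15.1% of all values, zeros included, are not whole. STAR, RSEM and the build mm39 appear in the submitters' processing notes. Versions and annotation are not given in the sources used here. The counts were rounded, genes were kept by filterByExpr (minimum count 10, minimum total 15), and libraries were scaled by TMM. Groups were compared with edgeR 4.0.16 (quasi-likelihood test, all 16 libraries in 1 fit, R 4.3.3) with Benjamini-Hochberg adjustment over 18335 genes and a threshold of 0.05. CPM values use TMM-scaled totals. With 4 libraries per group, p-values measure the spread between these libraries, and the labels do not say more about their source than separate samples. No library duplicated another of its group. The table held 0 columns of other samples.

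Alternatives were DESeq2 1.42.0, RLE size factors, no filter, at least 10 counts in every library, fits of 2 groups, a replicate block, a correction for GC content and length, a threshold of 0.01 and leaving out each replicate. The list counts under DESeq2, the correction and left-out replicates, the companion genes with a replicate left out, and the male-biased counts without Ugt2b38, were added after seeing the data. GC content, length and shared 50-base words came from GENCODE transcripts and promoter windows from RefSeq GRCm38.p6, neither of the files' build, so no other gene positions are given. Replicate numbers were not treated as pairs in the main fit. The deviations from group means of same-numbered libraries correlated above 0.1 in 4 of 16 pairs, from -0.13 to 0.34 over all. Whether the numbers pair the samples was not tested.

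The named genes were the axis genes, Khk, Gh and Prl, the 2 most raised and 2 most lowered called genes of each companion list in each comparison with a mean log2 CPM of at least 0 (the text gives most of them, and 1 item is not reported here), and the 3 genes most correlated with each axis gene (1 to 3 given). Marker genes of hepatocytes, adipocytes and pancreas were named after their values were seen. So were Irs1, Tyk2, Lyn, Elovl3, Cyp2b13, Cyp2c40, Cyp2c69, Cyp7b1, Selenbp2, C6, Socs1, Pappa and Igfbp6. The members and lists were chosen with earlier results of these data known. The scripts were tested on simulated data.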

Additional observations from a re-analysis of the deposited data

Results flagged for a closer look

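In 3 of the 44 sets of 4 libraries examined (11 genes in 4 groups), a single library stood apart from the other 3 of its group, where chance gives about 1 in 20. Ghr was at 568 CPM in HFD + siRNA replicate 2 and between 442 and 453 CPM in the others of that group. Socs2 was at 20.6 CPM in HFD replicate 1, against 3.67 to 5.55 CPM in the others. Cish was at 14.7 CPM in HFD + Inhib replicate 2, against 0.874 to 2.16 CPM in the others. In each of these 3 libraries both Socs2 and Cish were the highest of their group and Bcl6 the lowest.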

How the results depend on the processing

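Each sentence of ranges gives the lowest and highest value when each replicate was left out in turn. Genes called over the whole table numbered 3370, 2154, 3339 and 6204 in HFD against LFD, HFD + siRNA against HFD, HFD + Inhib against HFD and HFD + Inhib against HFD + siRNA, 1287, 689, 1733 and 3711 at a threshold of 0.01, and 2001 to 3691, 1100 to 1981, 2532 to 3050 and 4934 to 6251 with a replicate left out. The axis genes called (3, 0, 3 and 3) were 2 to 4, 0 to 1, 1 to 3 and 3 to 3 with a replicate left out. In HFD + siRNA against HFD 1 axis gene (Igf1) was called with DESeq2, with 2 groups fitted and after the GC and length correction, and in HFD + Inhib against HFD 1 (Hsd3b5) at 0.01. Male-biased genes called lower in HFD + Inhib against HFD + siRNA were 8 of 20, where 16.6% of all genes were lower. With a replicate left out they were 3 to 10. No such range is given for HFD against LFD, since Ugt2b38 was tested through other groups. With the replicate block, Igfals in HFD + Inhib against HFD was not called (-0.67, adjusted p = 0.0567), and the block changed no other call of an axis gene. Replicates shared a number but deviated together in 4 of 16 same-numbered pairs over the 4 comparisons, and in 5 of the 16 the best match was the own number. Signs turned for differences that were not called, and the cause was not tested. Ghr in HFD + siRNA against HFD was -0.00548 with DESeq2 and -0.00551 with RLE factors, -0.00395 without a filter, -0.014 with 10 counts in every library, -0.00640 with 2 groups and -0.11 to 0.043 with a replicate left out. Khk in HFD against LFD was 0.0053 with 10 counts in every library. After the GC and length correction, without and with the replicate block, Stat5a in HFD + Inhib was 0.12 and 0.11 against HFD + siRNA and 0.27 and 0.27 against LFD, Cux2 0.078 and 0.033 against HFD + siRNA, and Ghr -0.088 and -0.087 against LFD. With a replicate left out, HFD against LFD ran from -0.53 to 0.19 for Bcl6 and -0.19 to 0.44 for Cux2. HFD + siRNA against HFD ran from -0.26 to 1.45 for Socs2, -1.17 to 0.69 for Cish and -0.21 to 1.56 for Hsd3b5. HFD + Inhib against HFD ran from -0.43 to 1.17 for Socs2 and -2.71 to 0.092 for Cish. HFD + Inhib against HFD + siRNA ran from -0.18 to 0.0024 for Stat5a, -0.98 to 0.55 for Socs2, -2.32 to 0.19 for Cish, -0.40 to 0.21 for Bcl6 and -0.34 to 0.019 for Cux2. HFD + siRNA against LFD ran from -0.048 to 0.20 for Stat5a, -0.12 to 0.60 for Bcl6 and -0.42 to 0.20 for Cux2, and HFD + Inhib against LFD from -0.16 to 0.083 for Stat5a, -0.20 to 0.48 for Bcl6 and -0.60 to 0.021 for Cux2. With 4 libraries a group, the spread of Cish, Socs2 and Bcl6 limits what can be seen in them, and Cux2 is limited by its 9 to 44 counts.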
